A study of Arabidopsis thaliana with 24 samples.

Results

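AT5G53750, AT5G52790 and AT5G01740 are 3 Arabidopsis thaliana genes whose root transcripts rose after nitrate in Col-0 and had no called response in the double mutant nlp6nlp7. Each was measured by 1 probe set that names a single gene (248226_at, 248324_at and 251072_at), and they are 3 of 13414 probe sets paired with 1 locus. They were chosen by their own measured responses in Col-0 and nlp6nlp7, so those values are given below as a description, without a test. Tests are given for nlp6 and nlp7, whose responses the choice did not use, though their arrays shared in the spread behind its calls. The spread in those tests was estimated over all 24 arrays, the Col-0 and nlp6nlp7 arrays included, and where a call was lost with the 12 nlp6 and nlp7 arrays alone this is said beside it.

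Roots of 4 genotypes were profiled on 24 Affymetrix ATH1 arrays, with 3 biological replicates of about 200 seedlings in each of 8 groups. Besides the wild type Col-0 there were lines mutated in 1 gene, nlp6 or nlp7, and the double mutant nlp6nlp7, with no allele named in the labels. All seedlings had 12.5 mM ammonium succinate as nitrogen source for 9 days, and roots were taken either before nitrate (0 min) or after 35 min in 25 mM KNO3 at pH 5.5. A potassium salt lacking nitrate was not given to any group, hence nitrate, potassium, handling and elapsed time cannot be told apart in any response. The lines carry the same growth history, and the labels name no transgene in any of them.

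Nitrate acts in plants both as a nutrient and as a signal that changes transcription within minutes. NIN-like proteins (NLPs) are transcription factors with an RWP-RK DNA-binding domain, and NLP7 is known to be kept in the nucleus when nitrate is present, where it activates early nitrate-responsive genes. NLP6 and NLP7 are close relatives, so single and double mutants ask how far each gene's induction needs either factor. The gene tables used here list the 3 genes by locus alone, and what follows on their products is background from general Arabidopsis annotation. AT5G53750 encodes a protein with CBS domains, a fold known in other proteins for binding adenosine nucleotides. AT5G52790 encodes another CBS domain protein, which also carries a DUF21 domain. AT5G01740 encodes a protein of the nuclear transport factor 2 (NTF2)-like family. None of the 3 has a symbol in those tables.

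No probe set is named as NLP6 or NLP7 here, nor is any other gene of the NLP family, so the mutated genes could not be looked up by name. One probe set without a gene name, 261945_at, read at most 53 on the 12 arrays carrying the nlp6 mutation and at least 257 on the other 12. Another, 254195_at, read at most 38 on the 12 arrays carrying nlp7 and at least 257 on the others. Both were picked by this separation, and they alone lay 1 or more lower on the log2 scale on every carrying array than on every other array. Of the root markers, only EXPA7, a root hair expansin gene, could be measured (1 of 10), at 361 to 649. The 3 measured shoot markers of 8 summed to 289 to 620 per array, the highest at 0 min in nlp7, and neither marker list had a called response in any genotype. The nlp7 arrays of replicate 1 stood apart at both times, on a principal component with 8.89% of the variance (-34.83 and -37.26, against -14.79 to 18.99 on the other arrays). Both also lay outside the other arrays on a component with 11.6% (21.86 and 14.11, against -27.79 to 12.8). The 0 min array did so too on a component with 7.01% (-23.73, against -13.45 to 28.68). Hence the nlp7 responses of the 3 genes, and their called differences between nlp7 and nlp6, are also given without both arrays. Uncalled differences, and the counts and medians of larger gene sets, include them.

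In Col-0, AT5G01740 rose most of the 3 genes and AT5G52790 least. Intensities of AT5G01740 were 162, 139 and 198 at 0 min and 2034, 1240 and 2183 at 35 min, so that every array after nitrate lay far above every array before it. The log2 response, taken after adding 26 to each intensity (the 20th percentile of all values), was 3.23 ± 0.25 (SE, n = 3 per time), or 9.39-fold. AT5G53750 had 172, 85 and 117 before nitrate and 807, 627 and 729 after it. Its groups did not overlap either, and its log2 response was 2.34 ± 0.25. AT5G52790 was dim before nitrate in Col-0, at 42, 34 and 19, close to the value added, and reached 147, 192 and 159 after it. Its log2 response was 1.75 ± 0.22, a size that depends on the added value, being 2.34 with 3 and 0.998 with 103 added. Over the whole array, 4.65% of 22714 probe sets were called higher in Col-0 and 5.50% lower (limma adjusted p under 0.05), and the 3 genes were taken from the former.

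In nlp6nlp7, none of the 3 genes showed a shift between the times that exceeded its spread. AT5G01740 had 75, 87 and 87 at 0 min and 61, 113 and 93 at 35 min, so the arrays after nitrate enclosed those before it. Its log2 response was 0.05 ± 0.25. AT5G53750 had 66, 94 and 117 before and 133, 84 and 98 after nitrate, with a log2 response of 0.15 ± 0.25. AT5G52790 had 107, 111 and 68 before and 99, 91 and 73 after, with a log2 response of -0.08 ± 0.22. The 95% intervals of these responses reached up to 0.57, 0.68 and 0.37, and small rises lie within them. Across the array, 2.41% of probe sets were called higher and 3.00% lower in nlp6nlp7, and that the 3 genes lie outside both is part of how they were chosen.

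**Figure D1:**
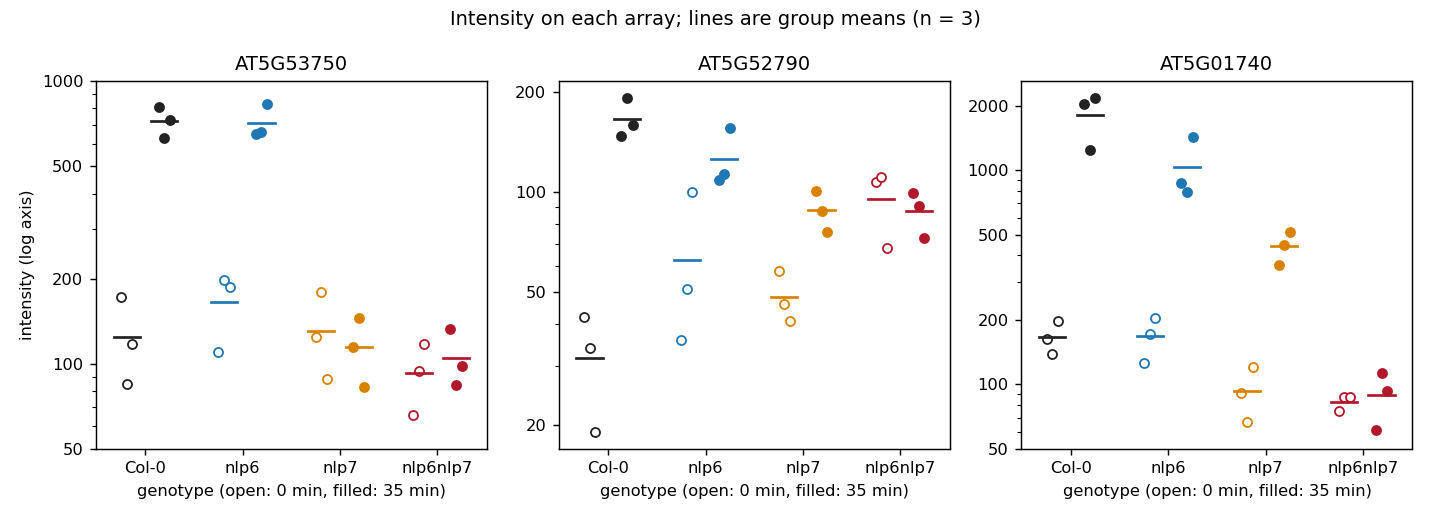
Intensity (log axis) of AT5G53750, AT5G52790 and AT5G01740 on each of the 24 arrays, by genotype, with open circles at 0 min and filled circles at 35 min; lines are means of 3 arrays. AT5G53750 is high in Col-0 and nlp6 after nitrate only, AT5G01740 steps down from Col-0 to nlp6, nlp7 and nlp6nlp7, and AT5G52790 is higher before nitrate in nlp6nlp7 (68 to 111) than in Col-0 (19 to 42).

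The lack of a called response in nlp6nlp7 came with different values in each gene when both times were set against Col-0. The genes were not tested against each other. For AT5G53750 the level before nitrate overlapped that of Col-0 (log2 difference -0.33 ± 0.25 SE) and the log2 difference at 35 min was -2.52 ± 0.25. For AT5G01740 both levels lay below Col-0 with no overlap, by -0.81 ± 0.25 at 0 min and -3.99 ± 0.25 at 35 min. The latter equals a 15.9-fold lower intensity with 26 added. For AT5G52790 all 3 nlp6nlp7 arrays at 0 min, at 68 to 111, lay above all 3 Col-0 arrays, at 19 to 42. That is a log2 difference of 1.07 ± 0.22 before nitrate, against -0.76 ± 0.22 at 35 min. The response gap in this gene was -1.83 ± 0.31, and since its Col-0 arrays before nitrate lie near the value added, the sizes of these parts depend on the scale. These differences rest on the Col-0 and nlp6nlp7 arrays that chose the genes and carry no test. In bulk roots, fewer cells transcribing a gene and less RNA per cell cannot be told apart.

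All 3 genes rose in nlp6 in the fit to all 24 arrays (limma adjusted p under 0.05), and 2 of the 3, without AT5G52790, in the fit to the nlp6 and nlp7 arrays alone. In the former, 4.13% of probe sets were called higher and 6.15% lower. AT5G53750 had 110, 197 and 187 before nitrate and 650, 658 and 830 after it in nlp6. The groups lay far apart, and the log2 response was 1.98 ± 0.25 (SE, n = 3 per time, limma adjusted p = 1.02e-05), a 3.94-fold rise against 5.07-fold in Col-0. AT5G01740 went from 126, 171 and 205 to 872, 790 and 1432, again without overlap. Its log2 response was 2.42 ± 0.25 (limma adjusted p = 5.2e-07), or 5.37-fold. Both calls held under all 35 alternative settings tried for them.

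AT5G52790 rose less firmly in nlp6. Its arrays read 36, 51 and 100 at 0 min and 109, 113 and 156 at 35 min. Replicate 3 before nitrate came close to the lowest array after it, without overlap. The log2 response was 0.84 ± 0.22 (limma adjusted p = 0.0146), and adjusted p ran from 0.000683 to 0.0925 over 34 alternatives. Many of these leave out 1 array of another genotype, which reaches this response through the shared variance alone. The call was lost in 4 of the 34. Adjusted p was 0.0925 and 0.0631 without replicates 1 and 2 of nlp6 at 0 min, 0.0776 without replicate 3 of nlp6 at 35 min, and 0.0534 with only the 12 nlp6 and nlp7 arrays in the fit. With 3 and 103 in place of 26 the log2 response was 1.08 and 0.48.

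In nlp7 the 3 genes parted, and 1 of them, AT5G01740, passed the test of a response. Its intensities were 91, 67 and 121 at 0 min and 362, 446 and 514 at 35 min, a clear separation. The log2 response was 1.98 ± 0.25 (SE, n = 3 per time, limma adjusted p = 1.61e-05), or 3.95-fold, and the call held under all 35 alternatives, at 2.11 without both arrays of replicate 1. Probe sets called higher in nlp7 made up 2.51% of the array and those called lower 2.61%.

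AT5G53750 showed no called response in nlp7. Its arrays read 124, 180 and 88 at 0 min and 115, 145 and 83 at 35 min, so both times covered nearly the same range. The log2 response was -0.14 ± 0.25 (limma adjusted p = 0.902), with a 95% interval of -0.67 to 0.38 that lies below the responses of 2.34 in Col-0 and 1.98 in nlp6. Without both arrays of replicate 1 it was -0.17. Under no alternative was it called.

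AT5G52790 lay between these. It had 58, 46 and 41 at 0 min and 101, 88 and 76 at 35 min in nlp7, so all 3 arrays after nitrate were above all 3 before it. Its log2 response of 0.62 ± 0.22 missed the threshold over all probe sets (limma adjusted p = 0.129), with a 95% interval of 0.17 to 1.07. It passed in 1 of 34 alternatives, without replicate 3 of nlp6 at 0 min (adjusted p = 0.0475), an array that enters this response through the shared variance alone. Without both arrays of nlp7 replicate 1 the log2 response was 0.63 (limma adjusted p = 0.324).

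**Figure D2:**
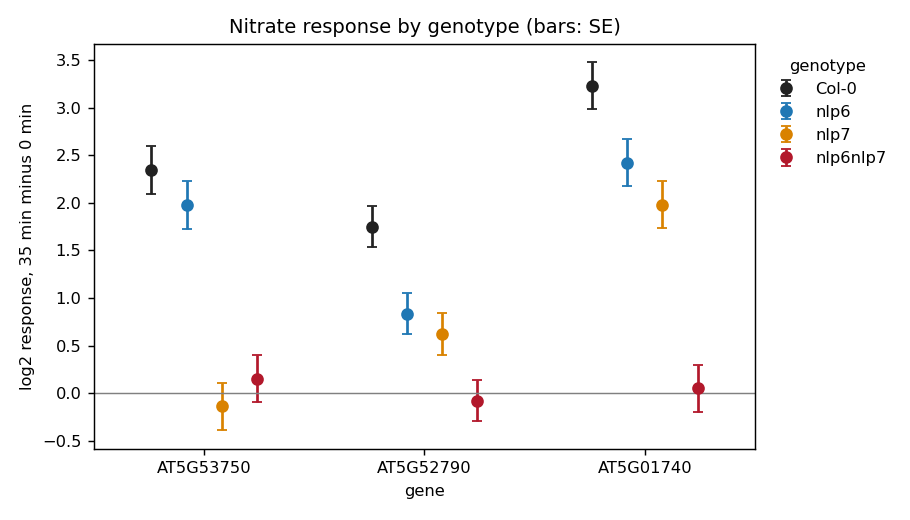
Log2 response (35 min minus 0 min, after adding 26) of the 3 genes in each genotype; points are estimates from 3 arrays per time and bars are SE. AT5G53750 is near 0 in nlp7 and nlp6nlp7 (-0.14 and 0.15), while AT5G01740 keeps 1.98 in nlp7 and has 0.05 in nlp6nlp7.

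Of the 3 genes, AT5G53750 alone passed the test of the response in nlp7 against that in nlp6. Its response was lower in nlp7 by a log2 difference of -2.12 ± 0.36 (SE, 3 arrays per group, limma adjusted p = 0.0079), where 0.225% of probe sets were called lower in that comparison. Alternatives that leave out a Col-0 or nlp6nlp7 array change this comparison through the shared variance alone. The call held in 34 of 35 alternatives, these included. It was lost with only the 12 nlp6 and nlp7 arrays in the fit (adjusted p = 0.103, same difference), which leaves fewer arrays to estimate the spread. Without both nlp7 arrays of replicate 1 the difference was -2.15 (limma adjusted p = 0.0471). AT5G01740 and AT5G52790 had response differences of -0.44 ± 0.35 and -0.21 ± 0.31 (limma adjusted p = 0.815 and 0.92). Their 95% intervals, -1.17 to 0.29 and -0.85 to 0.43, reach to clearly weaker responses in nlp7.

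Before nitrate none of the 3 genes was called different between nlp7 and nlp6, a comparison in which 1.27% of probe sets were called in either direction. AT5G01740 came nearest, with all 3 nlp7 arrays (67 to 121) below all 3 nlp6 arrays (126 to 205) and a log2 difference of -0.70 ± 0.25 (limma adjusted p = 0.178). For AT5G53750 and AT5G52790 the arrays overlapped, with differences of -0.29 ± 0.25 and -0.19 ± 0.22 (limma adjusted p = 0.639 and 0.742).

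After nitrate 2 of the 3 genes were lower in nlp7 than in nlp6, where 0.911% of all probe sets were called lower. AT5G53750 read 83 to 145 in nlp7 and 650 to 830 in nlp6, a log2 difference of -2.41 ± 0.25 (limma adjusted p = 1.51e-05), and this call held under all 35 alternatives, at -2.43 without nlp7 replicate 1. AT5G01740 read 362 to 514 in nlp7 and 790 to 1432 in nlp6, without overlap, a difference of -1.14 ± 0.25 (limma adjusted p = 0.0209). That call was lost in 5 of 35 alternatives, many of which leave out 1 array from a group outside this comparison. Such alternatives reach the comparison through the shared variance alone. Leaving out replicate 3 of nlp6 at 35 min gave an adjusted p of 0.108. Dropping nlp7 replicate 1 or 2 at 35 min gave 0.105 or 0.0766, dropping nlp7 replicate 1 at each time gave 0.105, and the fit to the 12 arrays alone gave 0.113. AT5G52790 had 76 to 101 against 109 to 156, also without overlap, and did not pass (-0.40 ± 0.22, limma adjusted p = 0.474). The summed shoot markers ran from 469 to 565 in nlp7 and from 302 to 531 in nlp6 at 35 min, and their part in these differences was not tested.

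Ordered by mean intensity, the 8 groups fell into different sequences for the 3 genes. AT5G53750 had 2 tiers. Col-0 and nlp6 at 35 min averaged 721 ± 90.3 and 713 ± 102 (SD, n = 3) and overlapped each other, and the other 6 groups, at 92.3 to 165, overlapped from each to the next. AT5G01740 stepped down after nitrate, from 1819 ± 507 in Col-0 to 1031 ± 349 in nlp6, 441 ± 76.1 in nlp7 and 89.0 ± 26.2 in nlp6nlp7. Col-0 and nlp6 overlapped, whereas nlp7 at 35 min stood clear of nlp6 at 35 min above it and of nlp6 at 0 min below it. Before nitrate, nlp6 (167 ± 39.6) and Col-0 (166 ± 29.7) overlapped, and nlp7 (93.0 ± 27.1) and nlp6nlp7 (83.0 ± 6.93) formed a lower tier that did not reach the Col-0 arrays. AT5G52790 had no gap anywhere in its order. It ran from 166 ± 23.3 in Col-0 at 35 min, through nlp6 at 35 min (126 ± 26.1) and nlp6nlp7 at 0 min (95.3 ± 23.8), down to Col-0 at 0 min (31.7 ± 11.7), and each group overlapped the next.

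On the linear scale the shares of the Col-0 gain that the single mutants kept differed from gene to gene. AT5G53750 gained 596 intensity units in Col-0 and 548 in nlp6, which is 91.9% of the Col-0 gain, and had -16.3 in nlp7. AT5G01740 gained 1653 units in Col-0, 864 in nlp6 (52.3%) and 348 in nlp7 (21.0%). AT5G52790 gained 134 units in Col-0, 63.7 in nlp6 (47.4%) and 40 in nlp7 (29.8%). On the log2 scale the shares of the Col-0 response were 84.5% in nlp6 for AT5G53750, 75.0% in nlp6 and 61.4% in nlp7 for AT5G01740, and 47.7% and 35.6% for AT5G52790. In nlp7 the order of AT5G01740 and AT5G52790 thus turns with the scale. Since Col-0 arrays chose the genes, these shares are a description.

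The 3 genes are part of a larger group that meets the same description. In all, 577 probe sets were called higher in Col-0 with no call in nlp6nlp7. Of these, 303 name 1 gene, and 66 of the 303 rose at least 2-fold in Col-0. Within the 66, AT5G01740 ranked 1, AT5G53750 ranked 3 and AT5G52790 ranked 10 by the Col-0 response. At the Col-0 threshold, AT1G09170 (log2 response 0.49) lay just inside and AT3G60080 (0.28) just outside. At the nlp6nlp7 threshold, AT5G57860 (0.48) had just no call and AT3G15480 (0.33) was just called.

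Called responses in the single mutants divided the 66 genes. The test called 30 in nlp6 and not in nlp7, as for AT5G53750 and AT5G52790. It called 14 in both, as for AT5G01740, 1 in nlp7 alone and 21 in neither. These counts are from the fit to all arrays. AT5G52790 lost its nlp6 call with only the nlp6 and nlp7 arrays in the fit (limma adjusted p = 0.0534). A call in one mutant and not in the other is no test of a difference. In the direct comparison by the fit to all arrays, 4 of the 66 had a called lower response in nlp7 than in nlp6. AT5G53750 was 1 of them, and it lost this call with only the nlp6 and nlp7 arrays in the fit (limma adjusted p = 0.103). In that smaller fit, calls in either direction over the whole array fell from 63 to 14. How many of the 66 were still called there was not counted. Over all probe sets, 4.13% were called higher in nlp6 and 2.51% in nlp7. The direct comparison called 0.225% lower in nlp7, also in the fit to all arrays. The median log2 response of the 66 was 0.87 in nlp6 and 0.53 in nlp7, and 55 had the lower value in nlp7. Among all 212 probe sets naming 1 gene that rose at least 2-fold in Col-0, the 66 included, the medians were 1.47 and 1.06. Of the 212, 152 were called in both single mutants, 35 in nlp6 alone, 2 in nlp7 alone and 23 in neither. The lower median in nlp7 thus also held in that wider set. AT5G01740 had the highest nlp7 response of the 66, while AT5G53750 had the second lowest together with the sixth highest nlp6 response.

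**Figure D3:**
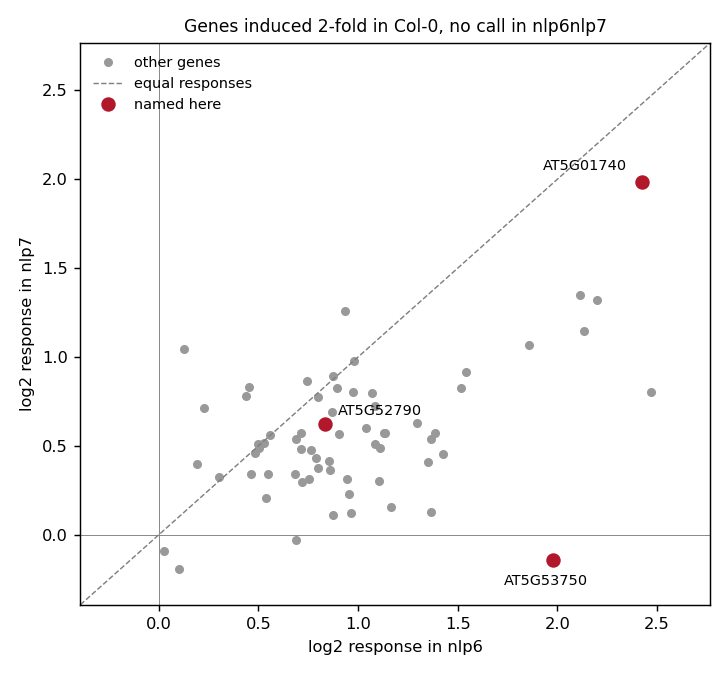
Log2 response in nlp6 (x axis) and in nlp7 (y axis) of the 66 genes that rose at least 2-fold in Col-0 and had no called response in nlp6nlp7, with the dashed line at equal responses. AT5G53750 (1.98 and -0.14) lies at the lower right, away from most genes, AT5G01740 (2.42 and 1.98) at the upper right, and AT5G52790 (0.84 and 0.62) within the bulk.

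Over the 24 arrays, log2 values of AT5G53750 and AT5G01740 had a Pearson correlation of 0.86 (Spearman 0.61). AT5G52790 had 0.63 with each of them (Spearman 0.49 with AT5G53750 and 0.50 with AT5G01740). All 3 share the rise in Col-0 by which they were chosen, and the arrays fall into separate groups, so these values describe the set and carry no test.

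The genes most like each of the 3 were taken by Pearson correlation over the same 24 arrays, among 1027 other probe sets naming 1 gene whose group means span at least 1 on the log2 scale. AT5G26200, a gene of the mitochondrial carrier family, came first for AT5G53750 (0.92) and for AT5G01740 (0.94). Its mean intensity before nitrate in Col-0 was 3.67, far below the value added, so the size of its log2 response depends on that value. Log2 responses were 2.66, 2.47, 0.80 and 0.14 in Col-0, nlp6, nlp7 and the double mutant. AT5G48970, of the same carrier family, was also among the 5 of both AT5G53750 (0.86) and AT5G01740 (0.89). AT1G72220 (0.86), AT5G01740 itself (0.86) and AT2G36470 (0.85) were the others for AT5G53750. AT2G36470 had 1.36 in nlp6, 0.13 in nlp7 and 0.22 in nlp6nlp7 and was called in Col-0 and nlp6 alone, as was AT5G53750.

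AT4G15740 (0.93), AT1G73920 (0.92) and bZIP58 (0.91), a transcription factor gene of the basic leucine zipper family, were the others most like AT5G01740. AT4G15740 had log2 responses of 0.97, 1.08, 0.82 and 0.30 in Col-0, nlp6, nlp7 and nlp6nlp7. For AT5G52790 the 5 were AT1G19380 (0.84), AT3G29760 (0.84), AT4G25620 (0.83), AT4G29780 (0.82) and AT5G52020 (0.81). Of these, AT1G19380 and AT5G52020 still rose in nlp6nlp7, by 0.59 and 0.83, unlike AT5G52790. The response of AT5G26200 in nlp7 lay -1.67 from that in nlp6 on the log2 scale, that of AT2G36470 -1.23, that of AT1G73920 -0.99 and that of AT5G48970 -0.81, beside -2.12 for AT5G53750. Of the 12 distinct genes so named, apart from the 3 themselves, 12 were called higher in Col-0 and in nlp6, 8 in nlp7 and 3 in nlp6nlp7. Being picked by likeness to the 3 over the same arrays, they had to share much of this pattern, and neither the counts nor these differences carry a test. Ranking by Spearman correlation kept 0, 1 and 1 of the 5 for AT5G53750, AT5G52790 and AT5G01740. The ranking thus depends on the measure of likeness, and AT5G26200 stood at rank 50 for AT5G53750 and 26 for AT5G01740.

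**Figure D4:**
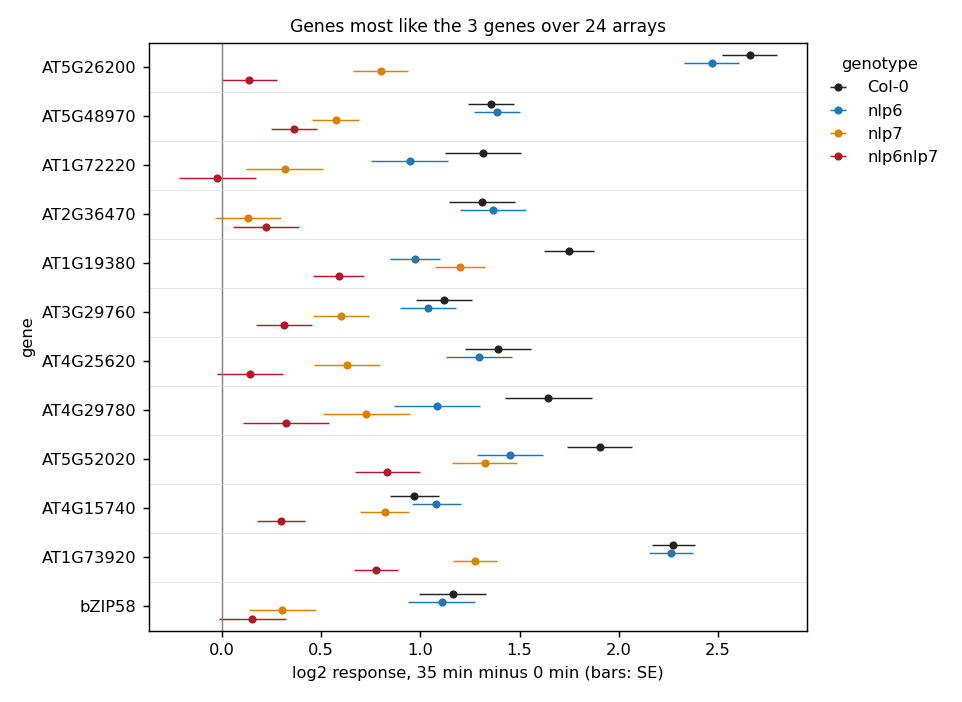
Log2 response in the 4 genotypes (points, with SE bars) of the 12 genes most like AT5G53750, AT5G52790 or AT5G01740 by Pearson correlation over 24 arrays. Every gene shown has a lower value in nlp6nlp7 than in Col-0 and nlp6, and AT5G26200 spans from 2.66 in Col-0 to 0.14 in nlp6nlp7.

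Other genes for CBS domain proteins were looked up beside AT5G53750 and AT5G52790. Of 32 listed, 16 had a named probe set, and in Col-0 1 rose, 3 fell and 12 did not pass the test, with a median log2 response of -0.12 beside -0.04 over all probe sets. With 4.65% of all probe sets called higher and 5.50% lower in Col-0, 1 rising gene of 16 is near the share over the array. The gene that rose, AT3G52950, had 1.20, 1.09, 0.80 and 0.59 in Col-0, nlp6, nlp7 and the double mutant, and passed the test in each (limma adjusted p = 1.03e-08, 4.45e-08, 6.98e-06 and 0.000279). AT1G79470, which encodes an IMP dehydrogenase of purine nucleotide synthesis, fell in all 4 genotypes, with -0.79, -0.71, -0.43 and -0.42. The other 2 that fell in Col-0 were AT4G33700 (-0.44) and AT1G47330 (-0.37), DUF21 proteins like AT5G52790, and neither was called in a mutant. AT3G52950 and AT1G79470 were the only called members in nlp6, nlp7 and nlp6nlp7, where 1 rose and 1 fell in each. The shares over all probe sets were 4.13% higher and 6.15% lower in nlp6, 2.51% and 2.61% in nlp7, and 2.41% and 3.00% in nlp6nlp7, so counts of 1 in 16 say nothing particular about these genes.

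**Figure D5:**
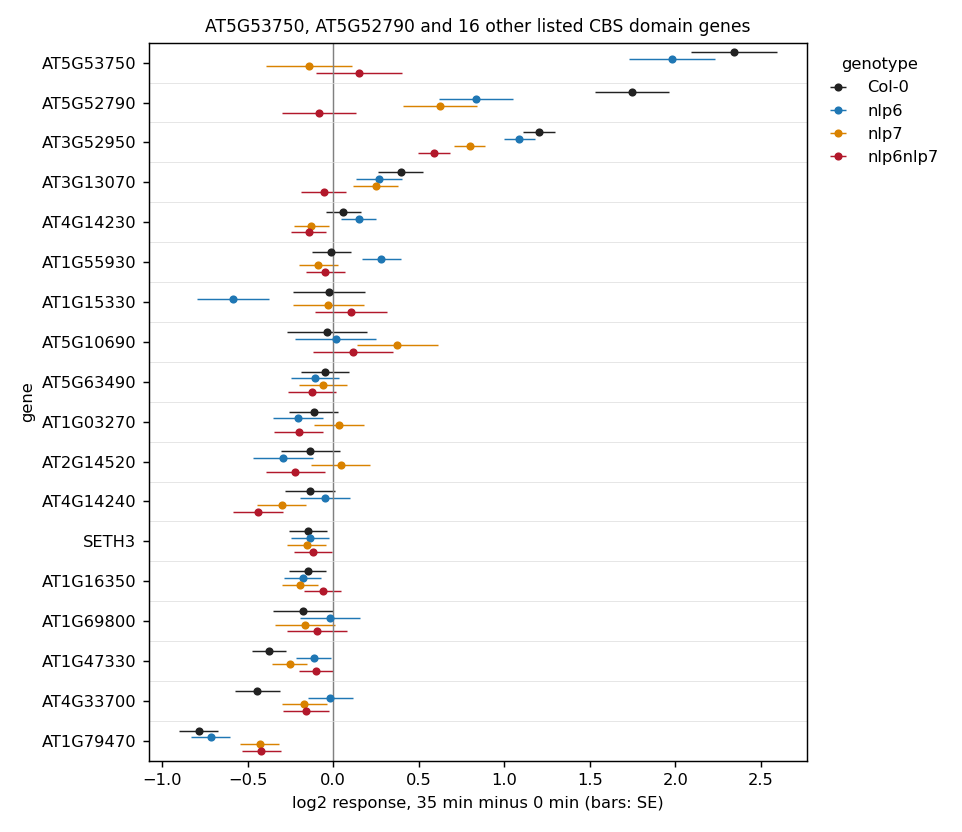
Log2 response in the 4 genotypes (points, with SE bars) of AT5G53750, AT5G52790 and 16 other genes for CBS domain proteins, ordered by the Col-0 response of the 16. AT3G52950 is the next highest in Col-0 at 1.20 and stays above 0 in all 4 genotypes, and AT1G79470 lies lowest at -0.79.

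Other listed genes gave a background of nitrate and energy signalling. The SnRK1 kinase complex, whose gamma subunits hold CBS domains, had 3 of 7 members measured, all beta subunits. None of the 3 was called in Col-0 or nlp6. AKINBETA2 (AT4G16360) fell in nlp7 (-0.34, limma adjusted p = 0.0434) and AKINBETA1 rose in nlp6nlp7 (0.36, limma adjusted p = 0.0408). Both calls lie close to the threshold. Over all probe sets 2.61% were called lower in nlp7 and 2.41% higher in nlp6nlp7, and counts of 1 in 3 say nothing particular. Of 30 primary nitrate response genes 6 were measured. Over all probe sets, 4.65% were called higher in Col-0 and 2.41% in nlp6nlp7. In Col-0, 5 of the 6 rose. Of those 5, 4 still rose in nlp6nlp7, namely the GARP regulators HHO2 (AT1G68670, 2.05) and HHO3 (AT1G25550, 2.09) and the 6-phosphogluconate dehydrogenases PGD1 (AT1G64190, 2.15) and PGD3 (AT5G41670, 2.96). HHO1 (AT3G25790) had 1.96, 2.13, 1.15 and 0.34 in Col-0, nlp6, nlp7 and the double mutant, the last without a call, as for the 3 genes.

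Most genes beside the 3 loci had no called response. Over all probe sets, 4.65% were called higher and 5.50% lower in Col-0. The shares were 4.13% and 6.15% in nlp6, 2.51% and 2.61% in nlp7, and 2.41% and 3.00% in nlp6nlp7. With 6 neighbours per locus, the small counts below say nothing particular about these loci. All 6 measured neighbours of AT5G53750 (3 on each side in the TAIR10.1 gene order) had no called response in any genotype, with Col-0 values of -0.33 to 0.18. Of the 6 around AT5G01740, AT5G01720 fell in Col-0 (-0.91), nlp6 (-0.73) and nlp7 (-0.55), and AT5G01780 fell in Col-0 (-0.44). In nlp6nlp7 AT5G01720 had -0.41, just short of a call (limma adjusted p = 0.0536). Of the 6 around AT5G52790, 1 rose. That gene, AT5G52810, rose by 0.66 ± 0.14 in Col-0 and 0.77 ± 0.14 in nlp6 (SE, limma adjusted p = 0.00251 and 0.000624), and had 0.12 and 0.08 in nlp7 and nlp6nlp7 without a call. Its difference between nlp7 and nlp6 was -0.65, without a call (limma adjusted p = 0.283). Some neighbours were very dim. Mean intensities over all arrays were 7.21 for AT5G52770, 13.0 for AT5G52780, 14.2 for AT5G53810 and 22.1 for AT5G53680. These lie below the value added before taking log2, so a response in these genes could be missed.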

How the data were processed

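Root RNA of 24 samples was hybridised to Affymetrix ATH1 arrays, per the labels' protocols. The authors' deposited values are intensities on a linear scale, as whole numbers from 1 to 36178 with a 2% trimmed mean near 500 on every array (500.1 to 500.5). For the summarising software, the name was not given in the sources used here. Of 22776 probe sets, 62 controls were left out and 22714 tested. The platform annotation names 1 gene for 13490 of them, several for 503 and none for 8721, and 13414 were paired with a locus of RefSeq's TAIR10.1 gene table, which served for names and gene order only. After adding 26 and taking log2, a group-means model over all arrays was fitted with limma 3.58.1 (R 4.3.3), with two-sided tests, Benjamini-Hochberg adjustment over all tested probe sets and calls at adjusted p under 0.05. Arrays give no read depth, and 3 per group limit the precision. The fit was also run on simulated data with independent noise on each array, and no result here rests on that run. Replicate numbers were not used to pair samples in this model.

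The 3 genes and the gene lists (CBS domain, SnRK1, NLP family, primary nitrate response, root and shoot markers) were chosen with earlier results of these data known. Named genes are the 3, the listed genes, the 3 measured neighbours on each side of each, and the 5 most correlated probe sets per gene. Alternatives changed the scaling, added value, filter, variance model, arrays and replicate block. Leaving out an array from a group outside a comparison changes its test through the shared variance alone. Sequences are not used here. Figures were drawn with matplotlib 3.10.9.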

Additional observations from a re-analysis of the deposited data

Results flagged for a closer look

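The nitrate response of AT5G53750 differed between the single mutants by a direct test of the difference. It was lower in nlp7 than in nlp6 by a log2 difference of -2.12 ± 0.36 (SE, 3 arrays per group, limma adjusted p = 0.0079). No nlp7 array at 35 min (83 to 145) reached the nlp6 arrays at that time (650 to 830). Without both arrays of nlp7 replicate 1, which stood apart from the others, the difference was -2.15 (limma adjusted p = 0.0471). Some of the 35 alternatives alter only the shared variance behind this test. The call held in 34 of the 35, with limma adjusted p from 0.000863 to 0.103. It was lost with only the 12 nlp6 and nlp7 arrays in the fit (adjusted p = 0.103, same difference). AT5G52790 and AT5G01740 did not pass this test.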

How the results depend on the processing

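No direction was reversed where a result was called. With only the arrays compared in the fit, fewer residual degrees of freedom remain. The number of the 3 genes called then fell from 1 to 0 for the nlp7 minus nlp6 response and from 2 to 1 at 35 min, and leaving out nlp7 replicate 1 at both times also gave 1 at 35 min. Probe sets called in the whole array under that setting were 14 in place of 63 for the response difference, 48 in place of 289 at 0 min, 71 in place of 325 at 35 min, 1523 in place of 2336 in nlp6 and 678 in place of 1163 in nlp7. The response difference had 132 with 103 added, 114 without the dimmest 50% and 123 with a trended, robust variance. The comparison at 0 min had 450 without the dimmest 50%, 95 with array weights and 153 without nlp7 replicate 1, and nlp6nlp7 had 2082 with array weights in place of 1229. The causes were not tested.

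Leaving out 1 array at a time gave 2 to 3 of the genes in nlp6, 1 to 2 in nlp7, always 1 for the response difference and 1 to 2 at 35 min. It gave 37 to 92 probe sets for the response difference, 120 to 449 at 0 min and 150 to 381 at 35 min. With the replicate number as a replicate block, 3 of the genes were called in nlp6, 1 in nlp7, 1 for the response difference, 0 at 0 min and 2 at 35 min, as without it. Over all probe sets the block gave 2433 calls in nlp6 and 1168 in nlp7. Replicate numbers were not taken to pair samples across groups. In 0 of 28 pairs of groups did all 3 same-numbered correlations exceed 0.1 (range -0.177 to 0.469). Between the 2 times they were 0.469, 0.0674 and 0.338 within nlp7 and 0.139, 0.204 and 0.087 within nlp6nlp7. They ran from -0.00837 to 0.144 within nlp6 and from 0.0354 to 0.116 within Col-0. This rule cannot decide on pairing within a genotype, and a block shared by all genotypes does not model it.

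The response of AT5G52790 in Col-0 was 2.34 with 3 added and 0.998 with 103, and that of AT5G53750 was 2.55 and 1.87. AT5G52790 was too dim to be tested without the dimmest 50%. Its nlp6 response stands close to the threshold, and its low level in Col-0 before nitrate limits every fold change taken from it. A comparison with protein relatives was not run, because no protein sequences were used here.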
